A study of Capra hircus with 20 samples.

Results

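The insulin-like growth factor (IGF) system was followed through 10 genes in goat cells cultured from muscle and from subcutaneous fat. The genes were the ligand IGF1, the receptors IGF1R, IGF2R and INSR, and the binding proteins IGFBP2, IGFBP3, IGFBP4, IGFBP5, IGFBP6 and IGFBP7. Members were the entries of the deposited mRNA table that carry these gene symbols, 24 of its 43766 transcripts, and the FPKM values of the transcripts of a symbol were summed. This gave 10 of the 20587 gene symbols in the table, and every member was found and passed the filter on low values. FPKM, in which the authors deposited their values, is the number of fragments of a transcript divided by its length and by the mapped fragments of the library. It is a level per length, so levels can be set side by side between genes.

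The cells came from the longissimus dorsi muscle (intramuscular) and the subcutaneous fat of 7-day-old male Jianzhou Daer goats (Capra hircus) and were used at passage 3. Intramuscular preadipocytes (IMPA) and subcutaneous preadipocytes (SPA) were harvested on day 0. Intramuscular adipocytes (IMA) and subcutaneous adipocytes (SA) were harvested after 3 days in DMEM/F12 medium with 10% fetal bovine serum and 50 µmol/L oleic acid, a fatty acid used to start fat storage. All groups grew in the same medium with serum before induction and held 5 libraries each, 20 in all. No sampled culture was kept for 3 days without oleic acid, so oleic acid and time in culture cannot be told apart. A change with induction here means day 3 with oleic acid against day 0.

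IGF1 is a secreted growth factor that signals through the tyrosine kinase IGF1R, a close relative of the insulin receptor INSR, and on to the kinases PI3K, AKT and mTOR. The binding proteins are secreted as well: they hold IGFs outside the cell, prolong their life in the fluid around cells, and can keep them from the receptor or, after cleavage by proteases, release them. Fat and muscle cells both make IGF1 and several binding proteins, and the pathway is known for its part in growth and differentiation of both tissues.

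The group names are those of the study and are used here as labels only. The library labels were first checked against marker genes. Of 9 skeletal muscle genes, 8 were in the table, and their summed level was 2522 to 2919 FPKM in IMPA and 8473 to 9090 FPKM in IMA, but 6.34 to 18.4 FPKM in SPA and 7.27 to 8.67 FPKM in SA. MYOD1 and PAX7, which mark muscle precursors, were at 43.2 ± 1.84 (SD, n = 5) and 12.3 ± 2.13 FPKM in IMPA and at or near 0 in both subcutaneous groups. The intramuscular cultures were thus rich in muscle transcripts at both stages. Of the defining adipocyte genes, CEBPA was at 3.91 to 9.23 FPKM as group means, PPARG reached 1.03 FPKM at most, and ADIPOQ, PLIN1 and LEP stayed under 0.5 FPKM in every group mean, after induction too. The lipase LPL was at 0.549 to 1.34 FPKM as group means. CD36, a fatty acid transporter, rose with induction from 0.252 to 4.91 FPKM in the intramuscular cells (log2 fold change 2.24, adjusted p = 2.85e-10, limma) and from 0.0679 to 0.934 FPKM in the subcutaneous cells (log2 fold change 0.84, adjusted p = 2.62e-05), while CEBPA fell in both (log2 fold change -0.68, adjusted p = 4.28e-06, and -0.31, adjusted p = 0.00794). CD36 passed the filter on low values, a mean of 1 FPKM, through IMA, and its means in the other groups were under that value. The fatty acid binding protein FABP4 was not analysed here. PDGFRA, a marker of fat cell precursors and fibroblasts, was at 148, 107, 572 and 327 FPKM in IMPA, IMA, SPA and SA. Of the same list, THY1 was at 13.2, 12.9, 37.4 and 15.6 FPKM in this order. COL1A1 was at 223 to 335 FPKM and COL3A1 at 4303 to 5242 FPKM as group means. DLK1 and CD34 stayed under 0.5 FPKM in every group mean. The summed level of 5 proliferation genes was 95.1 to 117 FPKM in IMPA, 84.1 to 104 in IMA, 35.95 to 41.3 in SPA and 189 to 213 in SA. Endothelial genes summed to under 1 FPKM in every library, and of 4 immune genes PTPRC and CSF1R were at or near 0. CD14 was at 5.91, 9.93, 14.5 and 12.96 FPKM in IMPA, IMA, SPA and SA, and CD68 at 0.587 to 2.27 FPKM as group means, both 1.68-fold higher in IMA than in IMPA (adjusted p = 0.00219 and 0.00189). CD68 was at 0.587 FPKM in IMPA and 0.989 FPKM in IMA and passed the filter on low values through the subcutaneous cells. The FPKM of the mRNA table summed to between 373889 and 413880 per library. The files hold FPKM without counts, and the depth under a single value is therefore unknown. In the paper's read summary, every IMPA library had a larger mapped share of reads and higher GC content than any library of another group. Every SA library had a smaller mapped share than any library of another group. These differences go with the group, so they cannot be told apart from it in comparisons that include IMPA or SA, which all comparisons made here do. Their part was not tested.

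As a sum the binding proteins dominated the family in level, and which of them led depended on the depot. Singly they did not all do so, as IGFBP3 was the lowest member in IMPA and IMA (4.75 and 4.65 FPKM). IGFBP6 and IGFBP2 together held 94.4% of the summed FPKM of the 6 binding proteins in IMPA and 84.0% in SPA. In the intramuscular cells both were high, while in the subcutaneous cells IGFBP6 stood almost alone and IGFBP2 was low. Ranked by group mean among all genes of the mRNA table, IGFBP6 was in place 5 in SPA and IGFBP2 in place 9 in IMPA. IGF1 and the receptors were between 4.88 and 50.2 FPKM in all group means. In bulk RNA, fewer cells of a type and less RNA per cell cannot be told apart, and this holds for every level given here.

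**Figure D1:**
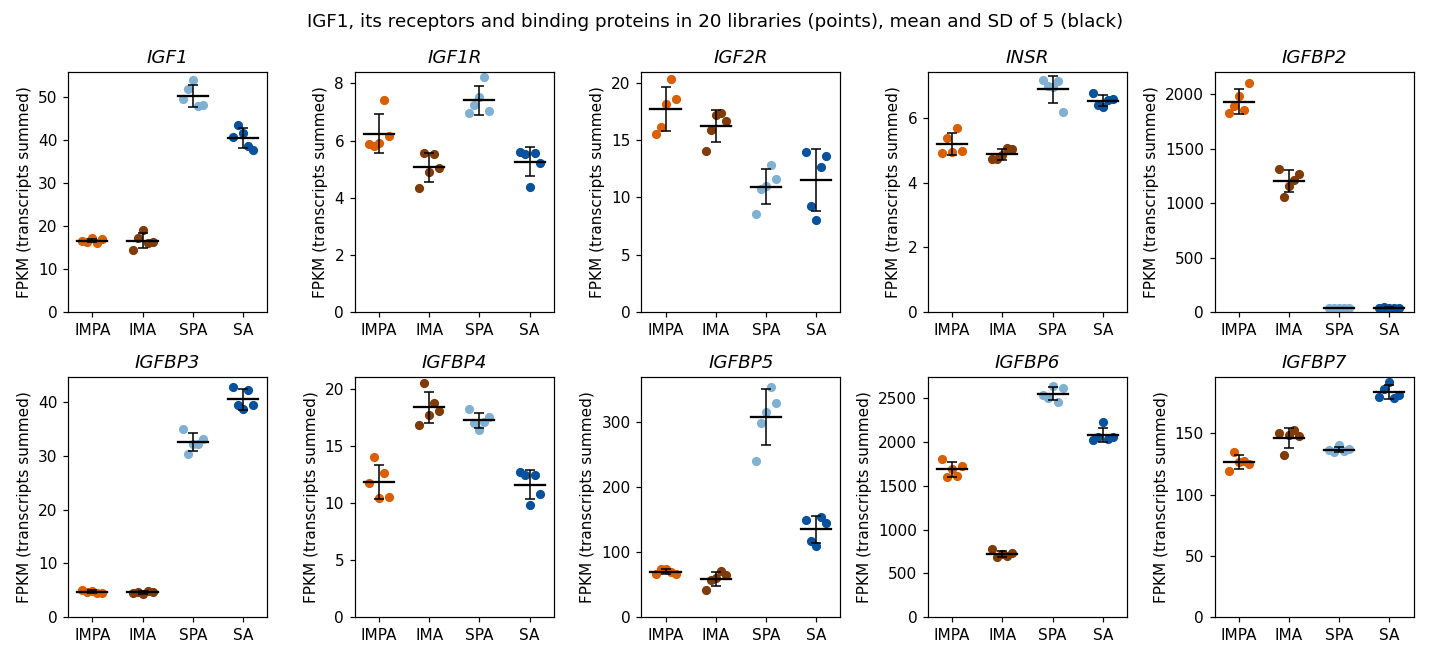
FPKM of each member (y axis of each panel, from 0, transcripts summed) in the 20 libraries, grouped on the x axis as IMPA, IMA, SPA and SA; points are libraries and black lines are the mean and SD of 5. IGFBP2 stood at 1054 FPKM or more in every intramuscular library and at 42.8 FPKM or less in every subcutaneous library, while IGF1, IGFBP3 and IGFBP5 were higher in every subcutaneous library than in any intramuscular one.

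IGF1, the ligand of the group, was higher in the subcutaneous than in the intramuscular cells and fell with induction in the former. IGF1 was at 16.5, 16.3, 17.1, 16.1 and 17.0 FPKM in the 5 IMPA libraries and at 14.5, 17.3, 19.0, 16.0 and 16.3 FPKM in the 5 IMA libraries. It was at 49.5, 51.8, 53.8, 47.8 and 48.1 FPKM in SPA and at 40.7, 43.4, 41.5, 38.5 and 37.6 FPKM in SA. The intramuscular groups overlapped, all SPA libraries lay above all SA libraries, and all SA libraries lay above both intramuscular groups. The fall in the subcutaneous cells was 1.25-fold by the ratio of mean FPKM (log2 fold change -0.31, SE 0.046, adjusted p = 0.000135, limma on log2(FPKM + 1)), while the intramuscular change was -0.0039 with a 95% interval of -0.13 to 0.13 (adjusted p = 0.96). The change in the intramuscular cells minus that in the subcutaneous cells was 0.31 (adjusted p = 0.00217). With the leading IGF1 transcript in place of the sum this difference was 0.11 (adjusted p = 0.678). Between the depots IGF1 was 3.03-fold lower in IMPA than in SPA (log2 fold change -1.54, SE 0.039, adjusted p = 2.08e-12) and 2.43-fold lower in IMA than in SA (log2 fold change -1.23, SE 0.064, adjusted p = 3.79e-10).

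Of the receptors, IGF1R passed the test with induction in both depots and was lower on day 3. IGF1R was at 5.90, 5.82, 5.92, 7.42 and 6.16 FPKM in IMPA and at 4.33, 5.56, 4.90, 5.54 and 5.04 FPKM in IMA. It was at 6.98, 7.25, 7.53, 8.21 and 7.05 FPKM in SPA and at 5.60, 5.53, 4.39, 5.58 and 5.22 FPKM in SA. In neither depot did the libraries of day 0 and day 3 overlap, and library IMPA4 lay above the other intramuscular libraries. IGF1R fell 1.23-fold in the intramuscular cells (log2 fold change -0.25, SE 0.074, adjusted p = 0.0111) and 1.41-fold in the subcutaneous cells (log2 fold change -0.43, SE 0.066, adjusted p = 0.000176). The difference between these changes was 0.17 with a 95% interval of -0.036 to 0.38 (adjusted p = 0.151), and without library IMPA4 it was 0.23 (adjusted p = 0.0427). IGF1R was lower in IMPA than in SPA (log2 fold change -0.22, SE 0.064, adjusted p = 0.00835), with overlapping libraries. Between IMA and SA the difference was -0.044, with a 95% interval of -0.20 to 0.12 (adjusted p = 0.605).

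INSR, the insulin receptor, and IGF2R, the receptor that removes IGF2 from the cell surface and carries lysosomal enzymes, differed between the depots in opposite directions. INSR was at 5.19 ± 0.341 FPKM in IMPA and 4.88 ± 0.170 in IMA, against 6.89 ± 0.410 in SPA and 6.53 ± 0.167 in SA (SD, n = 5). It was lower in the intramuscular cells on day 0 (log2 fold change -0.35, SE 0.052, adjusted p = 5.22e-05) and on day 3 (log2 fold change -0.36, SE 0.046, adjusted p = 7.61e-06), and no library of one depot reached those of the other at either stage. With the leading INSR transcript in place of the sum, these differences were 0.0004 (adjusted p = 0.999) and -0.69 (adjusted p = 0.0655). IGF2R was at 15.6, 16.2, 18.1, 20.3 and 18.5 FPKM in IMPA and at 14.0, 15.8, 17.2, 17.4 and 16.7 FPKM in IMA. It was at 8.59, 10.8, 10.95, 12.8 and 11.6 FPKM in SPA and at 14.0, 9.27, 8.04, 12.7 and 13.6 FPKM in SA. Every intramuscular library was higher than every subcutaneous one of its stage, and SA2 and SA3 were low among the SA libraries, which made SA the group with the widest relative spread of IGF2R (coefficient of variation 23.3%). IGF2R was 1.62-fold higher in IMPA than in SPA (log2 fold change 0.65, SE 0.094, adjusted p = 3.78e-05) and 1.41-fold higher in IMA than in SA (log2 fold change 0.48, SE 0.13, adjusted p = 0.00327). With induction, IGF2R differed by -0.12 (95% interval -0.28 to 0.044, adjusted p = 0.189) in the intramuscular and by 0.049 (-0.27 to 0.36, adjusted p = 0.802) in the subcutaneous cells. The INSR differences were -0.073 (-0.18 to 0.033, adjusted p = 0.213) and -0.064 (-0.17 to 0.038, adjusted p = 0.273). The ratio of IGF1R to INSR was 1.20 ± 0.0805 in IMPA, 1.04 ± 0.0988 in IMA, 1.08 ± 0.0733 in SPA and 0.805 ± 0.0690 in SA (SD, n = 5).

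IGFBP2, a binding protein abundant in early growth that can also bind cell surface integrins, showed the largest difference between the depots in the family. It was at 1826, 1896, 1985, 1859.9 and 2102 FPKM in IMPA and at 1314, 1054, 1155, 1209.7 and 1267 FPKM in IMA. It was at 41.1, 35.5, 33.9, 35.6 and 38.6 FPKM in SPA and at 41.1, 42.8, 39.7, 35.7 and 42.3 FPKM in SA. Neither the depots nor the intramuscular stages overlapped, whereas SPA and SA did. IGFBP2 was 52.3-fold higher in IMPA than in SPA (log2 fold change 5.67, SE 0.055, adjusted p = 6.44e-16) and 29.8-fold higher in IMA than in SA (log2 fold change 4.86, SE 0.064, adjusted p = 5.32e-17). It fell 1.61-fold with induction in the intramuscular cells (log2 fold change -0.69, SE 0.061, adjusted p = 2.17e-06). In the subcutaneous cells the difference was 0.12 (-0.0069 to 0.25, adjusted p = 0.103), and it passed the threshold without SPA1 (0.16, adjusted p = 0.032) or without SA4 (0.17, adjusted p = 0.0253). The changes differed between the depots by -0.81 (adjusted p = 1.07e-07). All 8 muscle genes differed between the depots in the same direction as IGFBP2. Between IMPA and IMA, 6 of them rose while IGFBP2 fell, PAX7 was not called (adjusted p = 0.384), and MYOD1 fell 1.65-fold (log2 fold change -0.71, adjusted p = 1.68e-06). Their part in these results was not tested.

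IGFBP6, which prefers IGF2 over IGF1, was the most abundant member in the subcutaneous cells and fell with induction in both depots. It was at 1807, 1595, 1691, 1608 and 1729 FPKM in IMPA and at 782, 692, 722, 699 and 729 FPKM in IMA. It was at 2531, 2498, 2638, 2457 and 2612 FPKM in SPA and at 2016, 2058, 2221, 2033 and 2055 FPKM in SA. No group overlapped another, and the order was SPA, SA, IMPA and IMA. The fall was 2.33-fold in the intramuscular cells (log2 fold change -1.22, SE 0.046, adjusted p = 1.27e-09) and 1.23-fold in the subcutaneous cells (log2 fold change -0.29, SE 0.044, adjusted p = 0.000147). The intramuscular change minus the subcutaneous change was -0.92 on the log2 scale (adjusted p = 3.18e-11). IGFBP6 was 1.51-fold lower in IMPA than in SPA (log2 fold change -0.60, SE 0.041, adjusted p = 3.39e-08) and 2.86-fold lower in IMA than in SA (log2 fold change -1.52, SE 0.046, adjusted p = 8.18e-13). Of the 4 tested genes of the list for fat cell precursors and fibroblasts, PDGFRA and THY1 had the same order of group means and COL1A1 and COL3A1 had other orders. The summed muscle genes were highest in IMA, where IGFBP6 was lowest, although MYOD1 was highest in IMPA. The part of these genes in the IGFBP6 result was not tested.

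IGFBP5, a binding protein that attaches to extracellular matrix, fell more than any other member in the subcutaneous cells. It was at 66.6, 74.0, 74.0, 69.6 and 66.8 FPKM in IMPA and at 42.4, 57.2, 60.8, 71.4 and 64.8 FPKM in IMA. It was at 239.9, 298, 314, 352 and 329 FPKM in SPA and at 149, 117, 109, 154 and 144 FPKM in SA. The subcutaneous stages did not overlap each other or the intramuscular groups, SA2 and SA3 were low within SA, and IMPA and IMA overlapped. The subcutaneous fall was 2.28-fold (log2 fold change -1.18, SE 0.12, adjusted p = 3.53e-06). The intramuscular difference was -0.26 (-0.50 to -0.019, adjusted p = 0.0591) and passed the threshold without library IMA4 (-0.33, adjusted p = 0.0189), with the mRNA table scaled to one sum (-0.29, adjusted p = 0.0361) and with the leading transcript (-0.35, adjusted p = 0.0252). The changes differed between the depots by 0.93 (adjusted p = 9.3e-05). IGFBP5 was 4.37-fold lower in IMPA than in SPA (log2 fold change -2.10, SE 0.085, adjusted p = 1.87e-10) and 2.27-fold lower in IMA than in SA (log2 fold change -1.18, SE 0.13, adjusted p = 1.31e-06).

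IGFBP3, the main carrier of IGF in blood, was low in the intramuscular cells and rose in the subcutaneous cells. It was between 4.37 and 5.16 FPKM in the 10 intramuscular libraries. It was at 35.0, 30.3, 32.2, 32.2 and 33.1 FPKM in SPA and at 42.6, 39.3, 38.6, 42.2 and 39.3 FPKM in SA. Every SA library was above every SPA library, and IMPA and IMA overlapped. The rise was 1.24-fold (log2 fold change 0.30, SE 0.043, adjusted p = 8.98e-05), against -0.026 (-0.14 to 0.084, adjusted p = 0.676) in the intramuscular cells, and the changes differed by -0.33 (adjusted p = 0.000208). IGFBP3 was 6.85-fold lower in IMPA than in SPA (log2 fold change -2.54, SE 0.048, adjusted p = 1.58e-13) and 8.70-fold lower in IMA than in SA (log2 fold change -2.87, SE 0.047, adjusted p = 6.97e-16).

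IGFBP4, known mostly as an inhibitor of IGF action that the protease PAPPA cleaves, changed in opposite directions in the depots. It was at 11.7, 14.0, 10.4, 12.7 and 10.5 FPKM in IMPA and at 16.8, 20.5, 17.7, 18.8 and 18.1 FPKM in IMA. It was at 18.2, 17.0, 16.4, 17.1 and 17.5 FPKM in SPA and at 12.7, 12.4, 9.80, 12.4 and 10.8 FPKM in SA. IMA and SPA were high and overlapped each other, IMPA and SA were low and overlapped each other, and no high library reached down to a low one. IGFBP4 rose 1.55-fold in the intramuscular cells (log2 fold change 0.60, SE 0.078, adjusted p = 4.82e-05) and fell 1.48-fold in the subcutaneous cells (log2 fold change -0.54, SE 0.065, adjusted p = 2.52e-05). The difference between the changes was 1.13 (SE 0.11, adjusted p = 1.08e-08). IGFBP4 was lower in IMPA than in SPA (log2 fold change -0.51, SE 0.070, adjusted p = 2.59e-05) and higher in IMA than in SA (log2 fold change 0.62, SE 0.072, adjusted p = 2.7e-06). The proliferation genes were lowest in SPA and highest in SA, and 6 of the 8 muscle genes were higher in IMA than in IMPA, MYOD1 being lower. Their part in the IGFBP4 result was not tested.

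IGFBP7, a secreted relative that binds IGFs only weakly, rose with induction in both depots. It was at 119, 135, 126, 128 and 125 FPKM in IMPA and at 151, 133, 149, 153 and 148 FPKM in IMA. It was at 137, 135, 140.3, 135 and 137 FPKM in SPA and at 179.7, 186, 192, 179 and 181 FPKM in SA. The SA libraries were above all others, while IMA2 was low for its group and overlapped with IMPA. The rise was 1.16-fold in the intramuscular (log2 fold change 0.21, SE 0.045, adjusted p = 0.00185) and 1.34-fold in the subcutaneous cells (log2 fold change 0.42, SE 0.029, adjusted p = 1.43e-07), and the former minus the latter was -0.21 on the log2 scale (adjusted p = 0.00239). IGFBP7 was lower in IMPA than in SPA (log2 fold change -0.11, SE 0.035, adjusted p = 0.0104), with overlapping libraries, and lower in IMA than in SA (log2 fold change -0.33, SE 0.044, adjusted p = 1.32e-05).

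**Figure D2:**
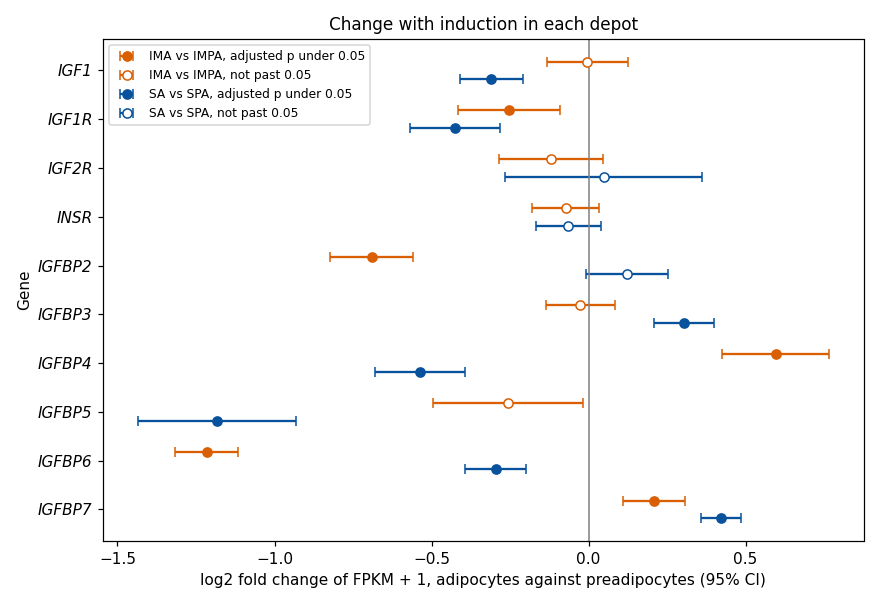
Log2 fold change of FPKM + 1 with induction (x axis, adipocytes against preadipocytes) for each member (y axis), with 95% confidence intervals from limma; orange is IMA against IMPA, blue is SA against SPA, and filled points passed an adjusted p of 0.05. IGFBP4 lies at 0.60 in the intramuscular and -0.54 in the subcutaneous cells, IGFBP6 has the largest intramuscular fall and IGFBP5 the largest subcutaneous fall.

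Counted over the family, 2 members, IGFBP4 and IGFBP7, were higher after induction of the intramuscular cells and 3, IGF1R, IGFBP2 and IGFBP6, were lower. Thus 5 of 10 passed the test, against a background of 60.1% of the 11432 genes tested. By direction, 19.9% of all genes tested were called higher and 40.2% lower in IMA. The groups did not overlap for 4 members, against 43.5% of all genes. The median log2 fold change was -0.097 over the members and -0.085 over all genes tested. The p values measure the spread between these libraries, since the labels do not say which animal a replicate came from.

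In the subcutaneous cells 7 of 10 members passed the test, against 52.1% of all genes tested. IGFBP3 and IGFBP7 rose, and IGF1, IGF1R, IGFBP4, IGFBP5 and IGFBP6 fell, where 26.1% of all genes were called higher and 26.0% lower in SA. Of all genes, 2982 were called higher and 2975 lower, and with the mRNA table scaled to one sum these became 2327 and 4052, while the members still gave 2 higher and 5 lower. The groups did not overlap for 7 members, against 38.8% of all genes. The median log2 fold change was -0.18 over the members and -0.0091 over all genes tested. The change differed between the depots for 7 of 10 members, which were IGF1 and the 6 binding proteins, against 55.3% of all genes. The intramuscular change was the more positive for IGF1, IGFBP4 and IGFBP5, against 20.7% of all genes, and the more negative for the other 4, against 34.6%. These shares stand for 2368 and 3951 genes, which became 3027 and 3221 after quantile normalization. None of the 3 receptors passed this test.

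Between the depots on day 0, 10 of 10 members passed the test, against 75.1% of all genes. IGFBP2 and IGF2R were higher in IMPA and the other 8 lower, where 42.3% of all genes were called higher and 32.9% lower. These shares stand for 4831 and 3757 genes, which became 4046 and 4665 after quantile normalization, while the members still gave 2 higher and 8 lower. The groups did not overlap for 8 members, against 63.4% of all genes. On day 3, 9 of 10 members passed, against 72.4% of all genes. IGFBP2, IGF2R and IGFBP4 were higher in IMA and 6 members lower, where 29.0% of all genes were called higher and 43.4% lower, and the groups did not overlap for 9 members, against 58.6% of all genes. The median over the members was -0.43 on day 0 and -0.34 on day 3, and over all genes tested 0.055 and -0.091. The comparisons of stage and of depot share their libraries and are not independent of each other.

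**Figure D3:**
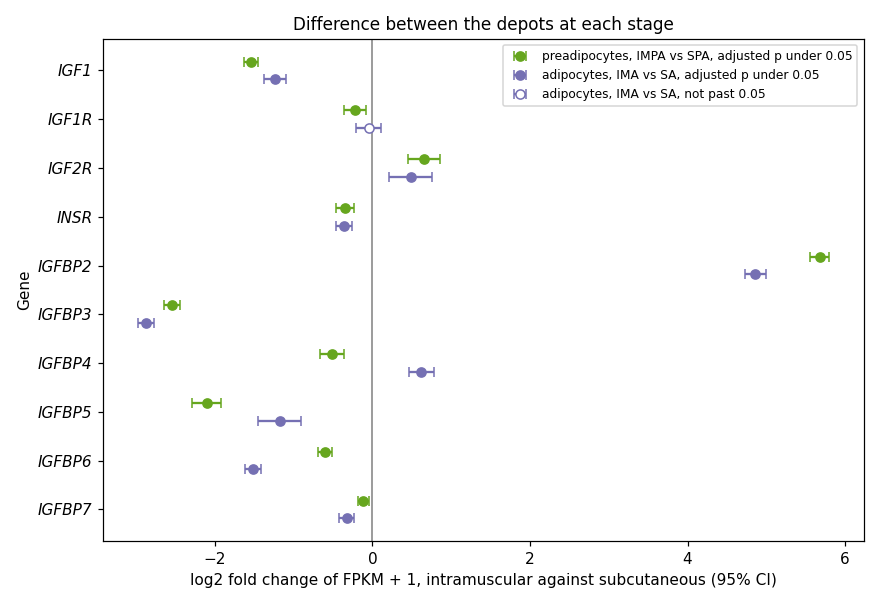
Log2 fold change of FPKM + 1 between the depots (x axis, intramuscular against subcutaneous) for each member (y axis), with 95% confidence intervals from limma; green is day 0, IMPA against SPA, purple is day 3, IMA against SA, and filled points passed an adjusted p of 0.05. IGFBP2 stands at 5.67 and 4.86, IGFBP3 at -2.54 and -2.87, and IGFBP4 lies on opposite sides of 0 on the days.

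The make-up of the binding proteins was next described as the share of each in their summed FPKM, with no test. IGFBP2 made up 50.4% ± 1.68 (SD, n = 5) in IMPA and 55.6% ± 1.36 in IMA, but 1.20% ± 0.109 in SPA and 1.62% ± 0.128 in SA. IGFBP6 made up 44.0% ± 1.78, 33.7% ± 1.18, 82.8% ± 1.16 and 83.5% ± 1.02 in the same order. The share of IGFBP2 was higher in every IMA library than in any IMPA library although its level was lower, IGFBP6 having fallen by more. The share of IGFBP5 was 9.96% ± 1.31 in SPA and 5.43% ± 0.915 in SA, and IGFBP3 and IGFBP4 stayed under 2% in every library. The summed level of the 6 genes was 3833 ± 143 FPKM in IMPA and 2154 ± 132 in IMA, and 3078 ± 86.1 in SPA and 2488 ± 69.8 in SA. Per unit of IGF1 this was 231 ± 4.47, 131 ± 19.8, 61.4 ± 3.16 and 61.8 ± 3.60. The ratio was thus nearly equal in the subcutaneous groups, whose libraries overlapped, and lower in every IMA library than in any IMPA library.

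**Figure D4:**
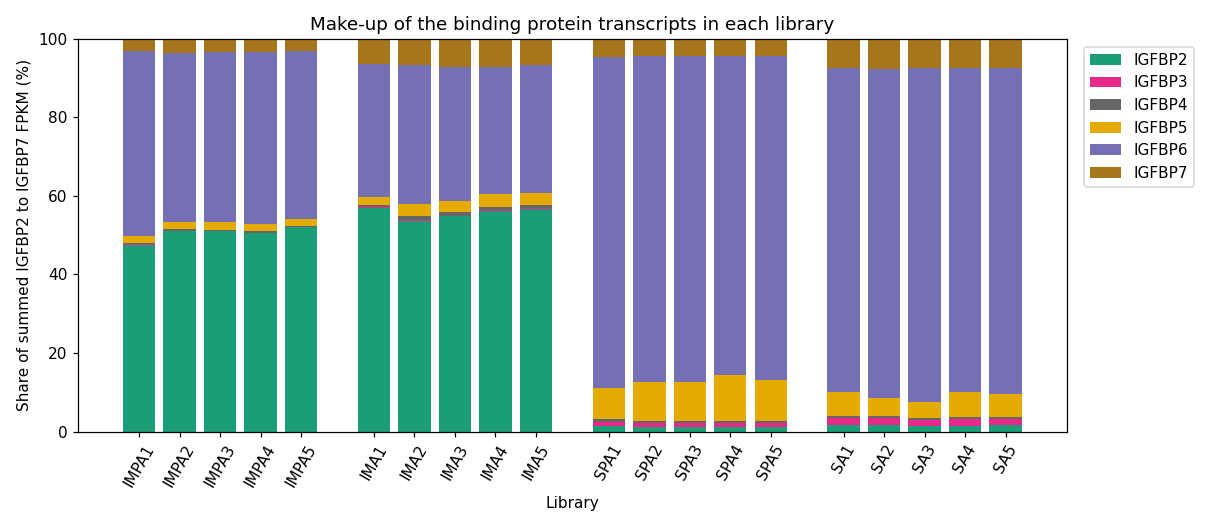
Share of each binding protein in the summed FPKM of IGFBP2 to IGFBP7 (y axis, percent, stacked to 100) in each of the 20 libraries (x axis). IGFBP2 takes 47.6% to 56.9% in the intramuscular libraries and 1.07% to 1.74% in the subcutaneous libraries, where IGFBP6 takes 81.1% to 85.1%.

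By their place in the RefSeq gene table (assembly ARS1.2, used here only for gene order and names, in which all 10 members were found by gene ID), IGFBP2 and IGFBP5 are direct neighbours. Their levels lay on opposite sides between the depots, with a ratio of IGFBP2 to IGFBP5 of 27.6 ± 2.24 in IMPA, 21.0 ± 5.69 in IMA, 0.123 ± 0.0278 in SPA and 0.306 ± 0.0583 in SA (SD, n = 5). IGFBP3 lies next to IGFBP1, which was at 0.529 and 0.743 FPKM in SPA and SA and at 0.143 and 0.0892 FPKM in IMPA and IMA. IGFBP4 lies next to TOP2A, a topoisomerase of dividing cells, which was at 10.9 FPKM in SPA and 57.2 FPKM in SA while IGFBP4 fell. In the intramuscular cells, where IGFBP4 rose, TOP2A was at 31.0 FPKM in IMPA and 32.0 FPKM in IMA (adjusted p = 0.604).

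Among the members, IGF1, INSR and IGFBP5 had 2 or more transcripts that averaged 1 FPKM or higher over all libraries. The leading IGF1 transcript, XM_005680537.3, held 48.2% ± 2.10 (SD, n = 5) of IGF1 in SPA and 49.8% ± 5.54 in SA, against 42.1% ± 2.76 in IMPA and 37.9% ± 8.45 in IMA. The leading IGFBP5 transcript, XM_018054265.1, held between 78.6% and 83.6% as group means. The leading INSR transcript, XM_018051134.1, ranged from 19.2% to 70.9% within IMA and from 28.0% to 88.0% within IMPA, so the split of INSR between transcripts was unstable among libraries of 1 group. None of the 12 comparisons of these shares passed the threshold after adjustment, and the smallest was for IGF1 in IMA against SA (exact permutation test, two-sided, p = 0.00794, which is the smallest 5 libraries against 5 allow, adjusted p = 0.0635).

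For the members whose group means spanned at least 1 on the log2 scale, the genes with the most similar course were sought by the root mean square difference of log2(FPKM + 1) over the 20 libraries, each gene centred on its mean. The libraries fall into 4 groups, so this likeness is mostly that of 4 group means. The nearest genes to IGFBP2 were MYOD1, the muscle determination factor (0.14), and LOC100861279 (0.22). In SPA and SA, MYOD1 was at 0 and 0.0072 FPKM and LOC100861279 at 0.0926 and 0.120 FPKM. Their likeness to IGFBP2 thus depends on the 1 added before the logarithm, and no other added value was tried for it. RSPO3, a secreted enhancer of WNT signalling (0.098), and LOC102190016 (0.11) were nearest to IGF1. RSPO3 was at 0.561 and 0.420 FPKM in IMPA and IMA, where the added 1 weighs likewise. IGFBP3 was followed by KITLG, the ligand of the receptor KIT (0.17), and LGMN, a lysosomal protease (0.19). L1CAM, a cell adhesion molecule (0.22), was among the 2 nearest to IGFBP5. Nearest to IGFBP6 were GM2A, a lysosomal lipid-binding protein, and FZD8, a WNT receptor (both 0.21).

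Of the rest of the IGF family, IGF2, the other growth factor, was at 7.86 ± 0.839 FPKM in IMPA and 9.30 ± 1.23 in IMA but 1.24 ± 0.320 in SPA and 1.02 ± 0.318 in SA (SD, n = 5). It was higher in IMPA than in SPA (log2 fold change 1.99, SE 0.093, adjusted p = 7.97e-10) and in IMA than in SA (log2 fold change 2.36, SE 0.11, adjusted p = 8.55e-11). With induction, IGF2 was called higher in IMA (log2 fold change 0.21, SE 0.086, adjusted p = 0.0489), and this call was lost in 8 of 10 fits that left out 1 library, all but those without IMPA4 or IMA1. INS, which encodes insulin, IGFBPL1 and INSRR, an orphan relative of the insulin receptor, were at or near 0, IGFALS, the partner of IGFBP3 in blood, was under 0.27 FPKM in every library, and IGFBP1 under 1.08 FPKM.

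Outside the members, 56 of 57 further genes of the family and its pathway were in the table and 43 were tested. In the intramuscular cells 10 of the 43 rose, IGF2 being 1 of them, and 12 fell with induction. This made 22 of 43 called, against 60.1% of all genes tested (19.9% higher and 40.2% lower). In the subcutaneous cells 6 rose and 22 fell, so that 28 of 43 were called, against 52.1% (26.1% higher and 26.0% lower). Their median log2 fold change was -0.052 and -0.15, against -0.085 and -0.0091 over all genes tested. All 6 tested genes among the proteases that cleave binding proteins and their inhibitors were called in the intramuscular cells, 3 in each direction, against the 60.1% of all genes. ADAMTS1, a secreted protease, fell 2.75-fold (log2 fold change -1.41, adjusted p = 2.73e-10) and HTRA1, a serine protease, fell 1.35-fold (adjusted p = 7.58e-06), while STC1 and STC2, which inhibit PAPPA, rose 2.20-fold (adjusted p = 0.000759) and 1.52-fold (adjusted p = 0.00102). PAPPA was also called higher, at 2.73 FPKM in IMPA and 3.26 FPKM in IMA (adjusted p = 0.0278, limma), with overlapping libraries. It was at 4.29 FPKM in SPA and 3.08 FPKM in SA. In the subcutaneous cells 1 of the 6 rose and 4 fell, against 52.1% of all genes called. There STC1 fell 5.30-fold (adjusted p = 2.41e-10), ADAM12, a metalloprotease, fell 1.43-fold (adjusted p = 0.000106), HTRA1 fell 1.32-fold (adjusted p = 7.96e-06) and STC2 rose 1.38-fold (adjusted p = 0.000178).

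Among 5 tested genes of the growth hormone axis, which drives IGF1 in liver, 1 rose and 1 fell in the intramuscular cells, against 60.1% of all genes called, and 3 fell in the subcutaneous cells, against 52.1%. SOCS3, a feedback inhibitor of cytokine receptors, rose 1.24-fold in the former (adjusted p = 0.00131) and fell 2.93-fold in the latter (adjusted p = 1.6e-10). STAT5B, the transcription factor of the axis, fell 1.20-fold in the intramuscular cells (adjusted p = 0.000585). The kinase JAK2 and the inhibitor SOCS2 fell 1.22-fold (adjusted p = 4.21e-05) and 1.20-fold (adjusted p = 0.00149) in the subcutaneous cells. Of 10 receptor adaptors and negative regulators, 1 rose and 3 fell in the intramuscular, and 1 rose and 5 fell in the subcutaneous cells, against the same shares of all genes. IRS1, the main docking protein of the receptors, fell 1.69-fold in the subcutaneous cells (adjusted p = 2.89e-06), and IRS2 fell there 1.42-fold (adjusted p = 0.000283) and in the intramuscular cells 1.302-fold (adjusted p = 0.0109). GRB10, an adaptor that restrains IGF1R and INSR, and PTPN1, a phosphatase of the receptors, fell 1.28-fold (adjusted p = 5.97e-05) and 1.15-fold (adjusted p = 0.00561) in the intramuscular cells. ENPP1, an inhibitor of INSR, rose 1.304-fold in the intramuscular cells (adjusted p = 0.0299) and 1.32-fold in the subcutaneous cells (adjusted p = 0.000289). The former call was lost in 5 of 10 fits that left out 1 library (IMPA1, IMPA2, IMPA4, IMA2 or IMA3). The adaptor SHC1 fell 1.299-fold in the subcutaneous cells (adjusted p = 0.038), a call lost in 4 of 10 such fits (without SPA1, SPA2, SPA4 or SPA5).

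In the chain from PI3K to mTOR, 4 of 19 tested genes rose and 5 fell in the intramuscular cells, against 60.1% of all genes called, and 4 rose and 9 fell in the subcutaneous cells, against 52.1%. AKT1, the kinase in its middle, fell 1.43-fold in the intramuscular cells (log2 fold change -0.51, adjusted p = 2.28e-05). MTOR fell 1.28-fold (adjusted p = 0.000374), the PI3K subunit PIK3R2 1.35-fold (adjusted p = 0.000848) and the mTOR inhibitor TSC2 1.28-fold (adjusted p = 0.000695) in the same cells. With the leading transcript in place of the sum, MTOR (adjusted p = 0.692) and PIK3R2 (adjusted p = 0.203) lost the call and TSC2 turned to 0.26. In the subcutaneous cells TSC2 fell 1.23-fold (adjusted p = 0.00423), while RHEB, the activator of mTOR, rose 1.29-fold (adjusted p = 7.9e-07). The PI3K subunit PIK3CB was called higher there (log2 fold change 0.27, adjusted p = 0.000239), at only 0.577 FPKM in SPA and 0.904 FPKM in SA. It passed the filter on low values through the intramuscular cells, where it was at 3.38 FPKM in IMPA and 4.02 FPKM in IMA. Of the proteins that bind IGF2 mRNA, 2 were tested, and IGF2BP2 fell 1.59-fold in the subcutaneous cells (adjusted p = 4.52e-08).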

How the data were processed

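Total RNA of 20 goat cell cultures was sequenced by the authors as stranded libraries. The deposited FPKM values per transcript were calculated by the authors, per the labels and their methods with HISAT2 2.0.4 alignment and StringTie 1.3.1, which normalizes for transcript length and mapped fragments; the annotation version is not given in the sources used here. Nothing was realigned. Transcripts were summed per symbol, and the 11432 genes averaging 1 FPKM or more in the 20 libraries entered the tests on log2(FPKM + 1) with limma 3.58.1 (variance trend, R 4.3.3), each pair of groups in a fit of 10 libraries and the interaction over all 20. P values were adjusted by Benjamini-Hochberg over all genes tested, and 0.05 was the threshold. Fold changes on this scale understate the change of low genes. For transcript shares a two-sided exact permutation test was used. Other steps ran in Python 3.11.15 (numpy 2.4.6, scipy 1.17.1, pandas 2.3.3, matplotlib 3.10.9). On simulated data, 200 of 11432 genes were changed, with independent noise. Between 87% and 95% of changes of 0.5 and between 98% and 100% of changes of 1 on the log2 scale were recovered, with 4 to 10 false calls. Far more genes were called in the real comparisons, so this number of false calls does not carry over to them.

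The members and lists were chosen with earlier results of these data known. Named were all members, the listed IGF family genes, per list and stage up to 4 called genes with the largest change, and the 2 genes nearest in course to each member whose group means span at least 1. PAPPA, the neighbouring genes and the genes named in the closing section were picked with their values in view. The alternatives tried were another filter, pseudocount, scaling, no variance trend, the leading transcript in place of the sum, all groups in 1 fit, the replicate number as a block, each library left out in turn, and SPA1 and SA5 left out together, since the study's filtering removed fewer of their reads than in other subcutaneous libraries. The tables of lncRNAs were used only for library sums and the neighbours of members. No sequence of the members was used here. Some genes that the naming rule covers are not reported here.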

Additional observations from a re-analysis of the deposited data

Results flagged for a closer look

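In 52 sets of 5 libraries, the library farthest out was compared with the rest, and 4 sets held a library far from the others, where chance gives about 1 in 20. IGF1R in library IMPA4 was at 7.42 FPKM, against 5.82 to 6.16 FPKM in the other IMPA libraries. INSR in SPA5 was at 6.17 FPKM, against 6.96 to 7.17 FPKM in the other SPA libraries. IGFBP6 in SA3 was at 2221 FPKM, against 2016 to 2058 FPKM in the rest of SA. IGFBP7 in IMA2 was at 133 FPKM, against 148 to 153 FPKM in the rest of IMA. By this measure no library stood apart for more than 1 member, but some lay at the edge of their group for several. SA3 was the lowest SA library for IGF1R, IGF2R, INSR, IGFBP3, IGFBP4 and IGFBP5 and the highest for IGFBP6 and IGFBP7. IMA1 was the lowest IMA library for IGF1, IGF1R, IGF2R, IGFBP4 and IGFBP5 and the highest for IGFBP2 and IGFBP6.

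The change with induction differed between the depots, tested as an interaction in limma, for 7 of 10 members, against 55.3% of all genes tested. The intramuscular change minus the subcutaneous change on the log2 scale was 1.13 for IGFBP4, 0.93 for IGFBP5 and 0.31 for IGF1. It was -0.92 for IGFBP6, -0.81 for IGFBP2, -0.33 for IGFBP3 and -0.21 for IGFBP7. IGFBP4 was the one gene among them called in opposite directions in the depots. With the leading IGF1 transcript in place of the sum, the IGF1 difference was 0.11 and was not called (adjusted p = 0.678, limma).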

How the results depend on the processing

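Over the alternatives, 5 to 7 members were called in IMA against IMPA, 7 to 8 in SA against SPA, 9 to 10 in IMPA against SPA, 8 to 9 in IMA against SA and 6 to 8 for the difference of the changes. The replicate numbers were not taken as pairs, because the deviations of same-numbered libraries correlated between -0.24 and 0.12 and not every library matched its own number best. With the replicate number as a block 7 members were called in IMA against IMPA, IGF2R (adjusted p = 0.0353) and IGFBP5 (adjusted p = 0.039) being added to the 5, and 7 in SA against SPA, the counts of members being the same as without it in the other 3 comparisons. Of all genes, the block called 6826 in IMA against IMPA and 5602 in SA against SPA. No scaling moved the median of all genes by more than 0.1.

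Directions turned only for values near 0 or with the leading transcript in place of the sum, which leaves out the other transcripts. IGF1 in IMA against IMPA became 0.033 with upper-quartile scaling and 0.058 with quantile normalization, and IGFBP3 0.0063 and 0.045. IGF2R in SA against SPA became -0.016 with the mRNA table scaled to one sum and -0.092 without SPA1 and SA5. INSR with the leading transcript was at 0.27 in SA against SPA and 0.0004 in IMPA against SPA. The INSR difference of the changes became 0.042, 0.061 and 0.024 with upper-quartile scaling, quantile normalization and the mRNA table scaled to one sum. With quantile normalization IGF1R passed the test of the difference of the changes (0.24, adjusted p = 0.0425). Of the pathway genes in IMA against IMPA, IGF2BP2 became -0.021 and -0.060 with the mRNA table scaled to one sum and the leading transcript, and SHC1 -0.012 and -0.17. TSC2 became 0.26 with the leading transcript. In SA against SPA the calls of TSC2 (adjusted p = 0.154), SHC1 (0.28) and SOCS2 (0.199) were lost with the leading transcript, and in IMA against IMPA that of PTPN1 with quantile normalization (0.0931) and that of IGF2 in 6 of 10 settings other than leaving out a library.

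Leaving out 1 library at a time gave ranges on both sides of 0 for IGF1 (-0.051 to 0.041), IGF2BP2 (-0.021 to 0.042), SHC1 (-0.026 to 0.066) and SOCS2 (-0.076 to 0.17) in IMA against IMPA. It did so for IGF2R in SA against SPA (-0.028 to 0.16), IGF1R in IMA against SA (-0.098 to 0.0019) and the INSR difference of the changes (-0.024 to 0.025). For transcript shares in SA against SPA the ranges were -0.12 to 2.74 percentage points for IGF1 and -0.89 to 0.40 for IGFBP5. None of these was called with all libraries. The cause was not tested.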

Other observations

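Between the depots, the pathway outside the family held differences that were chosen for mention after their values were seen. ADAMTS1 was at 43.9 ± 2.03 FPKM (SD, n = 5) in IMPA and 16.0 ± 0.768 in IMA, against 0.585 ± 0.131 in SPA and 0.728 ± 0.275 in SA (log2 fold change 4.83, SE 0.059, adjusted p = 4.76e-15 on day 0, limma). It passed the filter on low values through the intramuscular cells, where it was high. Its log2 fold change between the depots depends on the 1 added before the logarithm. INPPL1, a lipid phosphatase that dampens insulin signalling, was 2.90-fold higher in IMPA than in SPA (adjusted p = 1.12e-10) and 3.62-fold higher in IMA than in SA (adjusted p = 8.99e-12). JAK2 was 2.75-fold lower in IMPA than in SPA (adjusted p = 2.2e-07) and 2.54-fold lower in IMA than in SA (adjusted p = 1.71e-12). IGF2BP1, which binds IGF2 mRNA, was at 0.992 to 1.66 FPKM in the 10 subcutaneous libraries and at 0.056 FPKM or less in the intramuscular ones. It was under the filter and was not tested.

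STC1 changed in opposite directions with induction: its libraries were at 2.78, 3.42, 2.01, 2.82 and 1.84 FPKM in IMPA and 5.93, 6.73, 3.20, 6.55 and 5.88 in IMA, and at 6.07, 5.94, 6.90, 7.004 and 7.21 FPKM in SPA and 1.15, 1.31, 1.31, 1.31 and 1.17 in SA. The IMPA and IMA libraries overlapped, the SPA and SA libraries did not, and the difference of the changes was 2.64 (adjusted p = 1.46e-10, limma).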
